A study of Mus musculus with 15 samples.

Results

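CTGF given on top of JTE013 was read in 6 of the 15 libraries of the series, 3 from explants treated with JTE013 alone (JTE) and 3 from explants treated with JTE013 and CTGF (JTE + CTGF). The 6 were chosen by their titles and stated conditions, and no measured value entered the choice. All came from C57/Bl6J mouse embryos at 14.5 days post coitum (dpc) with no stated mutation, and the study describes them as dorsal pancreatic buds kept for 2 days on a filter at the boundary of medium and air. Both groups received 15 µM JTE013, and the second also received 50 ng/ml CTGF. Up to 3 explants of 1 treatment were pooled per library, and the study calls the 3 libraries of a group independent samples. None of the 15 libraries came from explants with CTGF and without JTE013, so the comparison covers CTGF in the presence of JTE013 only. Of the other 9 libraries, 3 came from explants cultured in standard medium (control), and 3 each from pancreata labelled wt or S1pr2 null that were taken at 14.5 dpc.

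JTE013 blocks S1pr2, a receptor for the signalling lipid sphingosine-1-phosphate (S1p). CTGF, encoded by Ctgf (now Ccn2), is a secreted matricellular protein that binds integrins, LRP receptors and matrix proteins, and its gene is a classic target of the transcriptional co-activator YAP. At the stage of the explants the pancreatic epithelium segregates into acinar cells, which make digestive enzymes, duct cells and hormone-producing endocrine cells, inside a mesenchyme that lays down matrix.

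The JTE libraries held 12459895, 13213066 and 13589186 reads assigned to genes, and the JTE + CTGF libraries 11658845, 11602826 and 11402804. Enough reads for a test were found for 16245 of 25292 genes, and the biological coefficient of variation was 7.3%. The chi-square per gene, which is about 1 for sampling noise alone, was 3.01 between JTE 1 and JTE 2 and 3.70 to 6.16 within JTE + CTGF. It was 17.2 and 23.2 between JTE 3 and the other JTE libraries, so JTE 3 stood apart. The pancreatic label held in both groups. Mean normalised read counts, which are counts scaled to a common library size, were 121203 (JTE) and 138228 (JTE + CTGF) for the acinar gene Cpa1, 9676 and 8336 for the epithelial gene Cdh1, and 49103 and 52690 for the mesenchymal gene Col1a1.

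The JTE + CTGF libraries differed from all other libraries in how counts depended on gene length, and this was read before any single gene. For each library, the median log2 deviation of the 10% of genes with the shortest exons (summed length up to 1071 bases) was subtracted from that of the 10% with the longest (7886 bases and more). The difference was 0.050, 0.114 and 0.182 in the JTE libraries and −0.212, −0.334 and −0.460 in the JTE + CTGF libraries. Over the 12 libraries without CTGF it ran from −0.072 to 0.200, so each JTE + CTGF library lay below all of them. The mean was −0.335 ± 0.124 (SD, n = 3) against 0.116 ± 0.066 (SD, n = 3), a difference of −0.45 (exact two-sided permutation test, p = 0.1, the smallest that 3 against 3 libraries allow). Since the trend coincides with the group, the effect of CTGF and any other difference between these libraries cannot be told apart.

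The trend ran through the whole range of lengths. The median log2 fold change of JTE + CTGF against JTE was 0.15 for genes with up to 1 kb of exons, 0.02 for 3 to 4 kb, −0.17 for 6 to 8 kb and −0.32 above 8 kb. Among genes above 8 kb, 58.4% were called lower and 1.71% higher, and among genes up to 1 kb 7.05% were called lower and 22.03% higher. JTE against control gave medians of −0.06 to 0.07 over the same classes. Across genes, Spearman's coefficient between length and fold change was −0.41, and genes are not independent replicates. A second fit therefore removed a smooth length trend from each library, which brought the coefficient to −0.008. Fold changes from it are called length-adjusted below and stand beside the plain ones of the genes given in full. This removes any length-dependent effect of CTGF together with any other length trend.

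**Figure D1:**
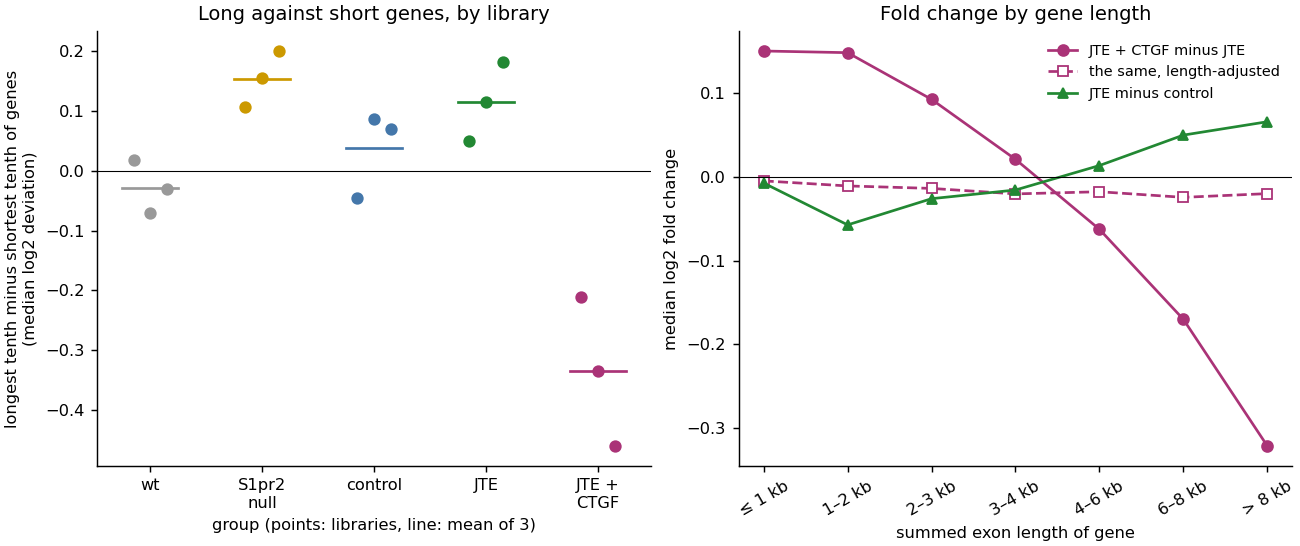
Left, difference between the longest and the shortest 10% of genes in median log2 deviation for each of the 15 libraries, by group, with the mean of 3 as a line. Right, median log2 fold change by summed exon length for JTE + CTGF against JTE, the same after length adjustment, and JTE against control. The 3 JTE + CTGF libraries lie between −0.460 and −0.212, below every other library, and their fold change declines with length until it is adjusted.

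Of 6 genes at the ends of the range of summed exon length, not all passed in the plain fit. Herc1 encodes a giant ubiquitin ligase and carries 27464 exonic bases, and it had 1213, 1294 and 1458 normalised reads in JTE and 926, 800 and 836 in JTE + CTGF. Its log2 fold change was −0.63 ± 0.07 (SE, edgeR adjusted p = 7.41e-06), and −0.16 after length adjustment (edgeR adjusted p = 0.0412). Macf1, a cytoskeletal linker with 26689 exonic bases, went from −0.59 to −0.12, which no longer passed (edgeR adjusted p = 0.129). Rps26, a ribosomal protein gene with 447 exonic bases, held 3157, 3345 and 3046 normalised reads in JTE and 3921, 4184 and 4309 in JTE + CTGF, and was higher in both fits (0.38 and 0.24). Spink1, a trypsin inhibitor gene with 422 exonic bases, was higher in both as well (0.63 and 0.49). Pcdhgc4, a protocadherin gene with 26094 exonic bases, had 0.006 in the plain fit (edgeR adjusted p = 0.961) and 0.48 after length adjustment (edgeR adjusted p = 3.47e-05). Its bases are summed over all exons of an entry that spans chr18:37674335-37841873, and the adjusted value rests on that sum. The length of its single transcripts was not read, so whether it departs from the trend cannot be said. Rps27rt, with 341 exonic bases the shortest of the 6, had 0.22 and did not pass (edgeR adjusted p = 0.128).

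Other gene classes also set the JTE + CTGF libraries apart from the other 12. Several genes known for white adipocytes were at or near 0 in all libraries but these. Lep, the leptin gene, had 31, 17 and 27 reads in JTE + CTGF and 0 in each of the other 12 libraries, at least 9.63-fold higher than the floor of 3 reads per JTE library. It was called by edgeR (adjusted p = 1.41e-04) and not by DESeq2 (adjusted p = 0.273). Adipoq, the adiponectin gene, had 26, 19 and 30 reads and Cidec, a lipid droplet gene, 22, 19 and 26, against at most 1 read in any JTE or control library, and both were called (edgeR adjusted p = 2.12e-05 and 5.59e-06). Of the 14 tested genes of an adipocyte list written after these values were seen, 5 were higher and 0 lower, and its summed level was 3020 to 3149 normalised reads in JTE and 3241 to 3485 in JTE + CTGF.

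Conversely, 8 of 8 tested predicted genes of satellite-like sequence, a list also written after the values were seen, were lower. Gm10800 on chromosome 2 had 470, 491 and 454 normalised reads in JTE and 0 in each JTE + CTGF library, against 393 to 1161 in the other 9 libraries. It was at least 136-fold lower by the same floor of 3 reads. The RNA polymerase III transcripts Rn7sk and Rmrp were lower as well, by log2 fold changes of −1.83 and −1.84 (edgeR adjusted p = 1.05e-07 and 2.54e-04), although 68.1% of the 50-base words of Rn7sk occur at other loci. Transcripts of Y-linked genes amounted to 79.5, 90.3 and 143 CPM (of all counts) in JTE and 149, 127 and 181 in JTE + CTGF. With that share as a covariate, added after seeing the data, 4749 genes were called instead of 4941. What part these differences have in the results below was not tested.

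**Figure D2:**
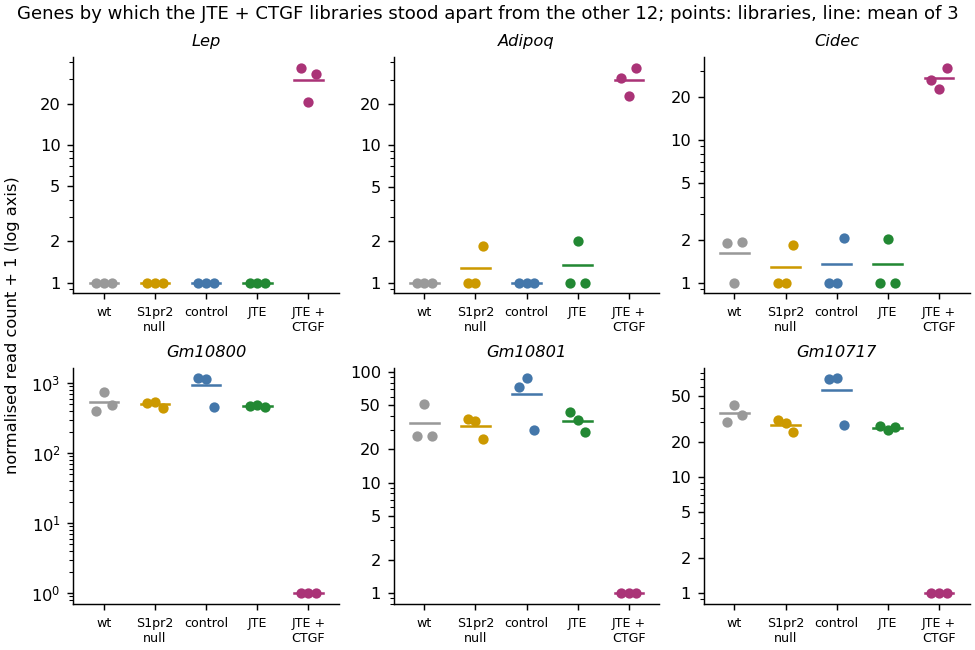
Normalised read count plus 1 (log axis) of 3 adipocyte genes and 3 satellite-like predicted genes in all 15 libraries by group, with the mean of 3 as a line. Before the 1 is added, Lep, Adipoq and Cidec lie at 19.5 to 35.5 in JTE + CTGF and at most at 1.04 elsewhere, and the satellite-like genes are at 0 in JTE + CTGF only.

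Over all genes tested, 4941 (30.4%) differed between JTE + CTGF and JTE at an adjusted p below 0.05 in edgeR's quasi-likelihood test, 2206 higher (13.6%) and 2735 lower (16.8%). After length adjustment 3532 (21.7%) did, 1538 higher (9.47%) and 1994 lower (12.3%). The fits shared 2706 calls in the same direction (16.7%), 1082 higher (6.66%) and 1624 lower (10%), while 2209 were called only without the adjustment, 800 only with it and 26 in opposite directions. The criterion of the study takes protein-coding genes with a fold change below 0.6 or above 1.6, more than 100 mean normalised reads and an adjusted p no higher than 0.1. By it 283 genes (1.74% of all tested) were regulated, 72 higher (0.443%) and 211 lower (1.3%). Without JTE 3 these were 110 higher and 172 lower. With length adjustment they were 190 (1.17%), 54 higher (0.332%) and 136 lower (0.837%). The values of the 2 groups did not overlap for 6526 genes (40.2%), with JTE + CTGF above JTE in 3180 (19.6%) and below in 3346 (20.6%).

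The genes with the largest rises that passed in both fits included secreted pancreatic proteins and globins. The Reg genes encode secreted C-type lectins that acinar cells make in injury and regeneration. Reg1 (ENSMUSG00000059654; chr6:78425983-78428666 in mm10) had 1069, 1577 and 3050 normalised reads in JTE and 15044, 7477 and 8559 in JTE + CTGF. The lowest JTE + CTGF library held more than 2 times the reads of the highest JTE library. The log2 fold change was 2.45 ± 0.31 (SE, edgeR adjusted p = 2.09e-05), and 2.29 after length adjustment. Control explants held 21101, 14518 and 12246 normalised Reg1 reads, above both treated groups apart from JTE + CTGF 1, which lay within their range.

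Reg3b had 103, 92.9 and 420 normalised reads in JTE and 2055, 628 and 730 in JTE + CTGF, and differed by 2.44 ± 0.49 on the log2 scale (SE, edgeR adjusted p = 0.00117, length-adjusted 2.29). Reg3g had 33.9, 28.6 and 63.3 in JTE and 262, 120 and 152 in JTE + CTGF, with 2.07 ± 0.31 (SE, edgeR adjusted p = 9.90e-05, length-adjusted 1.93). In both genes JTE 3 was the highest JTE library and JTE + CTGF 1 the highest of its group, without overlap. Reg3d (1.47) and Reg3a (2.19) were higher too, so that 5 of 5 tested Reg genes were called higher, while Reg2 and Reg4 carried at most 9 reads in any library and were not tested. Reg3a, with 4 to 9 normalised reads in JTE, lost its call without JTE 2 (edgeR adjusted p = 0.0558), without JTE + CTGF 1 (0.0528) and with the Y-linked share as covariate (0.0978). The 5 genes lie within 98 kb of chromosome 6, and this list was written after their values were seen.

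Other genes that respond to injury and inflammatory signals were searched in a list of the same origin. Socs3, a feedback inhibitor of STAT3 signalling, had 273, 251 and 397 normalised reads in JTE and 765, 413 and 461 in JTE + CTGF, a rise of 0.83 ± 0.18 on the log2 scale (SE, edgeR adjusted p = 0.00279, length-adjusted 0.74). The serine protease inhibitor genes Serpina3n (1.603) and Serpina3g (1.28) were higher, as was Hp, the haptoglobin gene, with 2, 0 and 3 reads in JTE against 32, 12 and 29 in JTE + CTGF and 29, 11 and 7 in control. In all, 5 of 19 tested genes were higher and 1 was lower, and 9 were higher without JTE 3. After length adjustment 6 were higher (3 to 10 with 1 library left out) and 1 was lower. Of all genes 13.6% were higher and 16.8% lower, and 9.47% and 12.3% after length adjustment. The acute-phase genes of liver, Saa1, Saa2 and Orm1, carried at most 2 reads. Of 18 MHC class I genes, a list also written after the values were seen, 9 were higher and 0 lower. Without JTE 1, without JTE 2 or without JTE + CTGF 2, 5 were higher. After length adjustment 9 were higher, but 2 without JTE 1, 1 without JTE 2 and 3 without JTE + CTGF 2. Of 22 tested interferon-stimulated genes 0 passed in edgeR or in DESeq2, and 1 had an unadjusted edgeR p below 0.05.

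The windows before the transcription starts of the Reg and acute-phase genes were searched for TTCNNNGAA, the palindromic consensus of STAT factors, which reads alike on both strands. Sequences are the 250 bases upstream of RefSeq starts in GRCm38.p6. The motif occurred in the windows of 2 of 5 tested Reg genes and of 4 of 15 acute-phase genes with an entry, and in 7.13% of the 11656 tested genes with an entry. Those of Reg3b (chr6:78370635-78370884, plus strand), Reg3d (chr6:78378866-78379115, minus strand), Socs3 (chr11:117969367-117969616, minus strand) and Serpina3g (chr12:104235897-104236146, plus strand) are shown because these genes rose and hold a match, with the matches in capitals. Matches also lie in the windows of the fibrinogen genes Fgb and Fga, which are not shown. Reg1, Reg3a, Reg3g and Serpina3n rose without this run of letters in the window, and a match is no evidence of binding. Because the windows shown were picked for a rise, they do not link the motif to the rise.
Reg3b: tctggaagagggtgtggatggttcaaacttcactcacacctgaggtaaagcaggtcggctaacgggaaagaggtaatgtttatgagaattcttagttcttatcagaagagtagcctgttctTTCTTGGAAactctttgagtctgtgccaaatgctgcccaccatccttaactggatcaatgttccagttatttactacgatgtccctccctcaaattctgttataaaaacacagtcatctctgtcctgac
Reg3d: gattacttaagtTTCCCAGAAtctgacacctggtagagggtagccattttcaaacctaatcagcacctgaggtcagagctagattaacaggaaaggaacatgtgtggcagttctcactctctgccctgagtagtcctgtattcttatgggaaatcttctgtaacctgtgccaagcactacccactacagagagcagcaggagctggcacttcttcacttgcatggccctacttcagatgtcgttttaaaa
Socs3: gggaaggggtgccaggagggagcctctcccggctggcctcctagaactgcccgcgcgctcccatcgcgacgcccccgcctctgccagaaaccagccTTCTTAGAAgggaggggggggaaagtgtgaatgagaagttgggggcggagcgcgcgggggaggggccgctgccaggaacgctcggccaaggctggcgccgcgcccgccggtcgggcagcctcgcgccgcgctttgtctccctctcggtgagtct
Serpina3g: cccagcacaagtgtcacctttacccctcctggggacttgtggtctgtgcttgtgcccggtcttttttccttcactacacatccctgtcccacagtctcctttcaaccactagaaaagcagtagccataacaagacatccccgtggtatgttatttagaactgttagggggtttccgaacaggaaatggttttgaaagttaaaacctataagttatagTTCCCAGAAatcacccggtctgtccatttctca

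Among acinar genes, several secreted enzymes were higher. Rnase1, the pancreatic ribonuclease, had 344, 386 and 321 normalised reads in JTE and 1037, 1019 and 996 in JTE + CTGF (1.54 ± 0.21 SE, edgeR adjusted p = 3.64e-05, length-adjusted 1.37), and control held 1095 to 2397. All 3 JTE + CTGF libraries lay above all JTE libraries and below all control libraries. The trypsin gene Try5 had 21437, 25771 and 14146 in JTE and 47920, 32763 and 48671 in JTE + CTGF (1.08 ± 0.19 SE, edgeR adjusted p = 4.20e-04, length-adjusted 0.91), above its control level of 8563 to 11927. Its reads can be split with near-identical trypsin copies, since 47.6% of its 50-base words occur elsewhere.

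Of the 30 acinar markers of the study, whose choice is not described in full and whose counts are therefore no independent evidence of direction, 8 were higher and 3 lower, with a median log2 fold change of 0.33 beside −0.002 over all genes. Of all genes 13.6% were higher and 16.8% lower. Without JTE 3, 5 acinar markers were lower, and without JTE 2, 12 were higher. After length adjustment 4 were higher (7 without JTE 2) and 3 lower, with a median of 0.17. Cpa1, a carboxypeptidase gene used to mark acinar and tip cells, changed by 0.19 ± 0.19 (SE, edgeR adjusted p = 0.486), and Ptf1a, the acinar master regulator, by 0.32 ± 0.17 (edgeR adjusted p = 0.179). Ptf1a passed with the Y-linked share as covariate (0.031) and without a filter on low counts (0.0219). Nr5a2, a nuclear receptor that drives acinar genes, had 1262, 1229 and 1025 normalised reads in JTE and 846, 807 and 715 in JTE + CTGF, and was lower (−0.57 ± 0.09 SE, edgeR adjusted p = 2.63e-04, length-adjusted −0.58). Xbp1, a transcription factor of secretory cells that expands the endoplasmic reticulum, had 5104, 5046 and 4120 in JTE and 7754, 6448 and 7425 in JTE + CTGF, and was higher (0.60 ± 0.10 SE, edgeR adjusted p = 2.05e-04, length-adjusted 0.54). Other secretory genes among the largest rises were Dmbt1 (2.03), Cuzd1 (1.79) and 2210010C04Rik (1.54).

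**Figure D3:**
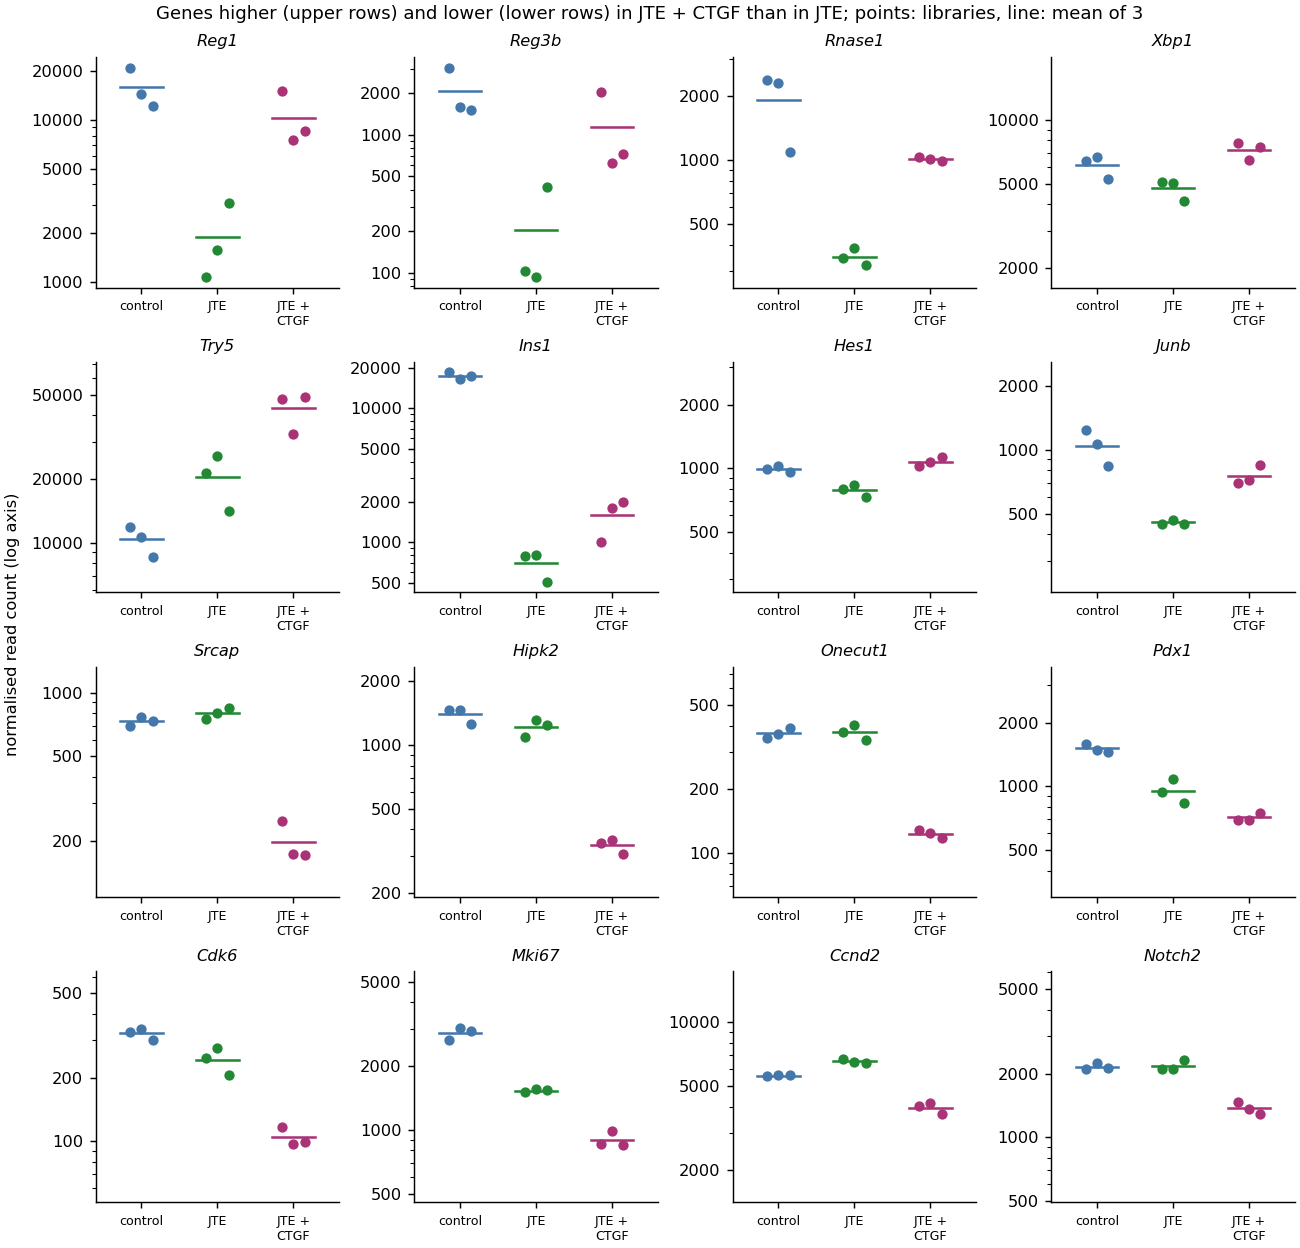
Normalised read count (log axis) of 16 genes in the control, JTE and JTE + CTGF libraries, with the mean of 3 as a line. The genes of the upper rows are higher and those of the lower rows lower in JTE + CTGF than in JTE, without overlap of the 2 groups, as in Reg1 with 1069 to 3050 against 7477 to 15044.

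Among hormone genes, Ins1 alone passed the test. Ins1 (ENSMUSG00000035804; chr19:52264323-52265456) had 792, 807 and 506 normalised reads in JTE and 996, 1794 and 2002 in JTE + CTGF, which did not overlap (1.19 ± 0.25 SE, edgeR adjusted p = 0.00184, length-adjusted 1.01). Control explants held 16502 to 18526, so both treated groups lay far below control. Ins2, the second insulin gene, had 2056, 2275 and 1447 in JTE and 1693, 3202 and 3392 in JTE + CTGF. Its change of 0.52 ± 0.25 (SE) did not pass (edgeR adjusted p = 0.131), but did without JTE + CTGF 1 (0.0188) and without a filter on low counts (0.00725). Gcg, Sst, Ppy and Ghrl, the genes of glucagon, somatostatin, pancreatic polypeptide and ghrelin, changed by −0.08, 0.13, −0.05 and −0.06, and none passed (edgeR adjusted p = 0.442 to 0.869). The difference between Ins1 and the other hormone genes was not tested.

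Neurog3, the factor that commits progenitors to the endocrine lineage, had 369, 359 and 190 normalised reads in JTE and 222, 322 and 439 in JTE + CTGF, with overlap (0.11 ± 0.22 SE, edgeR adjusted p = 0.765). Of the 56 endocrine markers of the study, to which the same applies, 4 were higher and 16 lower. The shares of all genes were 13.6% and 16.8%. Without JTE 1 or without JTE 2, 10 of these markers were lower. The median log2 fold change was −0.09, and −0.13 after length adjustment. Members that were lower in both fits include Ccnd2, a cyclin of beta cell growth (−0.73), the insulin receptor substrate Irs2 (−0.69) and Mnx1 (−0.62), a beta cell transcription factor whose call was lost without JTE 2 (edgeR adjusted p = 0.0526).

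The 20 progenitor markers of the study held 3 higher and 6 lower genes, 3 lower without JTE 2, with a median of −0.01. Of all genes 13.6% were higher and 16.8% lower. Onecut1 (ENSMUSG00000043013; chr9:74861921-74891475), a factor of early pancreatic and duct progenitors, had 374, 401 and 343 normalised reads in JTE and 128, 125 and 117 in JTE + CTGF. It was lower by the largest amount of the list (−1.59 ± 0.13 SE, edgeR adjusted p = 3.24e-07; length-adjusted −1.61), and control held 348 to 392. JTE and control therefore overlapped and JTE + CTGF lay apart. Pdx1, the pancreatic master regulator, had 943, 1081 and 836 in JTE and 694, 695 and 751 in JTE + CTGF (−0.42 ± 0.09 SE, edgeR adjusted p = 0.00140, length-adjusted −0.40). Control held 1458 to 1589, so JTE + CTGF lay further from control than JTE did.

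Nkx6-1, which marks trunk progenitors and beta cells, changed by 0.05 ± 0.07 (SE, edgeR adjusted p = 0.632). Of the 17 duct markers 0 were higher and 3 lower (17.65%), 5 without JTE 3, with a median of −0.15. Over all genes 16.8% were lower, so the count lies near the share of all genes. Krt19, a duct keratin, changed by −0.07 ± 0.06 (SE, edgeR adjusted p = 0.424), and was called lower only after length adjustment (−0.22; 0.0142). Sox9 changed by −0.22 ± 0.10 (SE, edgeR adjusted p = 0.0867), and passed without JTE 3 (0.00542).

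**Figure D4:**
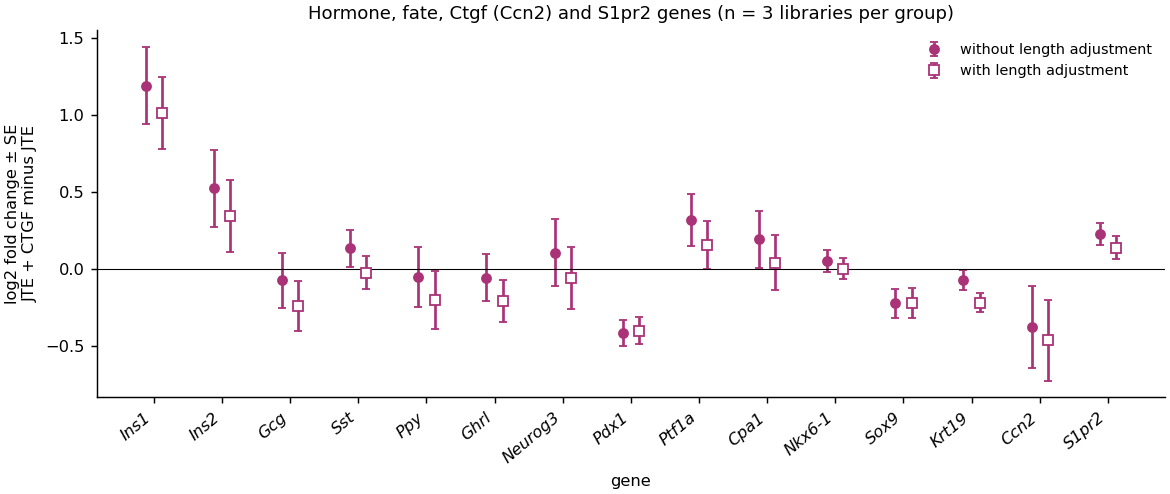
Log2 fold change of JTE + CTGF against JTE with its SE for hormone, fate, Ctgf (Ccn2) and S1pr2 genes, without (filled) and with (open) length adjustment, 3 libraries per group. Ins1 at 1.19 and Pdx1 at −0.42 pass the test in both fits, while most of the other genes lie near 0.

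The Notch pathway, in which neighbouring cells compare ligand and receptor to choose fates, gave unequal changes. Hes1, the main pancreatic Notch target, had 801, 839 and 732 normalised reads in JTE and 1022, 1068 and 1130 in JTE + CTGF, and was higher (0.44 ± 0.06 SE, edgeR adjusted p = 5.13e-05; length-adjusted 0.30). Control held 957 to 1023. Rbpj, the DNA-binding partner of Notch, was higher by 0.52 (edgeR adjusted p = 0.00353). The receptor gene Notch2, with 10506 exonic bases, had 2110, 2090 and 2325 in JTE and 1467, 1365 and 1292 in JTE + CTGF, and was lower in both fits (−0.66 and −0.35). Of the 23 Notch genes of the study 2 were higher and 7 lower, and 4 and 4 after length adjustment (2 lower without JTE 2 or JTE + CTGF 3). The shares of all genes were 13.6% and 16.8%, and 9.47% and 12.3% after length adjustment. The Notch list is the study's own too, so the count is not independent evidence.

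The CCN family, to which CTGF belongs, held 0 of 4 tested genes that passed in edgeR or in DESeq2, and 0 had an unadjusted edgeR p below 0.05. Ccn2 (ENSMUSG00000019997; chr10:24595442-24598683), the endogenous Ctgf gene, had 328, 278 and 249 normalised reads in control, 111, 80.7 and 42.8 in JTE and 41.2, 65.3 and 72.3 in JTE + CTGF. The treated groups overlapped, and JTE + CTGF differed from JTE by −0.38 ± 0.26 (SE, edgeR adjusted p = 0.306). Without JTE 3, the lowest JTE library, the change was −0.65 and passed (edgeR adjusted p = 0.0247). Ccn1 (−0.21), Ccn3 (−0.17) and Ccn4 (0.10) did not pass either, and Ccn5 and Ccn6 carried at most 8 reads in any library. S1pr2 itself, the target of JTE013, had 769, 845 and 909 in JTE and 1085, 933 and 938 in JTE + CTGF (0.23 ± 0.07 SE, edgeR adjusted p = 0.0234), a call that was lost in 6 of 16 alternative settings. Among them were the length adjustment (edgeR adjusted p = 0.204), the fit of the 6 libraries alone (0.0607), and the fits without JTE 1 (0.117), JTE 2 (0.0532) or JTE + CTGF 1 (0.126).

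Of the 11 tested YAP targets listed by the study, which include Ccn2, 0 were higher and 7 lower, with a median log2 fold change of −0.38, and after length adjustment 5 were lower (3 without JTE + CTGF 1) with a median of −0.30. In this comparison 16.8% of all genes were lower, and 12.3% after length adjustment. The list is the study's own, so its count is not independent evidence. It had a median of −0.68 in JTE against control, where 52.2% of all genes were called, and of −0.99 in JTE + CTGF against control, where 61.1% were, and these comparisons share libraries. Cdk6, a kinase of G1 progression, had 330, 338 and 302 normalised reads in control, 247, 277 and 206 in JTE and 117, 97.3 and 99.5 in JTE + CTGF. The 3 groups did not overlap, and JTE + CTGF was lower than JTE, with a log2 difference of −1.21 ± 0.12 (SE, edgeR adjusted p = 2.74e-06, length-adjusted −1.24). Hmmr, a mitotic spindle gene (−0.46), and Pola1, a DNA polymerase subunit (−0.54), were lower as well, in both fits.

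Among 16 receptors and partners of CTGF, 2 were higher (0 to 4 with 1 library left out) and 6 lower (5 to 7). After length adjustment 1 was higher (0 to 4) and 3 lower (1 to 3). Over all genes 13.6% were higher and 16.8% lower without, and 9.47% and 12.3% with the adjustment. Fn1, the fibronectin gene, had 3194, 3395 and 4809 normalised reads in JTE and 2890, 2305 and 2111 in JTE + CTGF, and was lower (−0.64 ± 0.13 SE, edgeR adjusted p = 0.00140; length-adjusted −0.43). Itgb6, an integrin subunit of epithelia, was lower by −0.61 (edgeR adjusted p = 7.91e-04; length-adjusted −0.45). Itga6 (−0.50) passed without the length adjustment alone.

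In the wider list of 33 laminins, integrins and adhesive matrix genes, 1 was higher and 17 lower with a median of −0.33. After length adjustment 1 was higher and 9 lower, 5 without JTE + CTGF 3, and the median was −0.08. The collagen receptor gene Itga2 had 98.4, 83.7 and 80.9 in JTE and 27.4, 36.6 and 33.2 in JTE + CTGF, and was lower in both fits (−1.43 ± 0.16 SE, edgeR adjusted p = 5.86e-06, length-adjusted −1.42). Of the 18 collagen genes 1 was higher and 5 lower, which became 3 and 3 without JTE 3 and 1 and 3 without JTE + CTGF 3. After length adjustment 9 were higher and 3 lower, and 2 higher without JTE 1, so no direction is given for collagens. Col12a1 (−1.28 and −0.81) was lower and Col5a3 (0.48 and 0.62) higher in both fits. Among 16 TGF-beta and BMP targets 3 were higher, among them Pmepa1 (0.44, edgeR adjusted p = 8.78e-05), and 1 was lower. That is 25% called in either direction, against 30.4% over all genes.

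Among genes of the cell cycle, some of the mitosis and replication genes were lower. Mki67, the proliferation marker, had 2667, 3024 and 2928 normalised reads in control, 1506, 1552 and 1539 in JTE and 854, 984 and 845 in JTE + CTGF. No groups overlapped, and JTE + CTGF was lower than JTE by −0.78 ± 0.07 (SE, edgeR adjusted p = 5.67e-07; length-adjusted −0.48). Of 28 mitosis genes 0 were higher and 13 lower (10 to 17 with 1 library left out), with a median of −0.23 in both fits. After length adjustment 15 were lower, but 9, 4, 7 and 9 without JTE 1, JTE 3, JTE + CTGF 1 or JTE + CTGF 3. Bub1b, a spindle checkpoint kinase, was lower by −0.56, with a length-adjusted value of −0.55. Of 29 DNA replication genes 1 was higher and 9 lower, among them Rrm2, a ribonucleotide reductase subunit (−0.40), and Mcm5, part of the replicative helicase (−0.35). Over the 6 fits with 1 library left out, 6 to 13 replication genes were lower. After length adjustment 0 were higher (0 to 1) and 11 lower (6 to 15). Of 20 G1 cyclins, CDKs and inhibitors, 3 were higher (1 to 4) and 4 lower (3 to 4), and 2 and 6 after length adjustment, with medians of −0.05 and −0.07. Of all genes 13.6% were higher and 16.8% lower, and 9.47% and 12.3% after length adjustment. Without the adjustment 35% of the G1 genes were called in either direction, near the 30.4% over all genes.

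The largest fall that passed in both fits was that of Gm10800, given above, followed by Srcap and Hipk2. Srcap (ENSMUSG00000053877; chr7:127512027-127536376), the catalytic subunit of a chromatin remodeller that deposits H2A.Z, had 697, 771 and 735 normalised reads in control, 751, 803 and 843 in JTE and 248, 174 and 171 in JTE + CTGF. The log2 fold change against JTE was −2.01 ± 0.10 (SE, edgeR adjusted p = 2.87e-09), and −1.97 after length adjustment. Hipk2 (chr6:38694390-38876165), a nuclear kinase, had 1090, 1315 and 1243 in JTE and 346, 356 and 306 in JTE + CTGF (−1.86 ± 0.09 SE, edgeR adjusted p = 9.04e-10; length-adjusted −1.62). In both genes the JTE + CTGF libraries lay below all control and JTE libraries.

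Further falls of this rank were in the kinase gene Aak1 (−1.81), the corepressor gene Lcor (−1.77), the zinc finger gene Zfp871 (−1.70), the ubiquitin ligase gene Cbl (−1.68) and Plxna4, a semaphorin receptor gene (−1.67). Cbl had 352, 360 and 431 normalised reads in JTE and 162, 102 and 91.2 in JTE + CTGF. Of 49 tested large chromatin regulators 48 were lower, with a median of −0.53 and a median exonic length of 10702 bases. This list was chosen with earlier results of these data known, so its count is no independent evidence of direction. Over all genes 16.8% were lower, and 58.4% of those above 8 kb. After length adjustment 34 were lower and 1 higher, with a median of −0.23 beside −0.02 over all genes. The methyltransferase family gene Kmt2e had 1642, 1696 and 1570 in JTE and 927, 863 and 813 in JTE + CTGF (−0.91 ± 0.05 SE, edgeR adjusted p = 1.39e-08; length-adjusted −0.74). With 1 library left out, 47 to 48 were lower without and 26 to 33 with the length adjustment.

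Ribosomal and respiratory genes, many of them short, held more higher than lower calls where encoded in the nucleus. The median exonic length of these nuclear-encoded lists was 1304 to 1700 bases. Among all genes of 1 to 2 kb 22.7% were higher and 5.41% lower, against 13.6% and 16.8% of genes of any length. After length adjustment 9.47% of all genes were higher and 12.3% lower. Of 79 cytosolic ribosomal protein genes 50 were higher and 1 lower, with a median of 0.30, and 35 were higher and 4 lower after length adjustment with a median of 0.17 (23 higher without JTE + CTGF 3). Of 74 mitochondrial ribosomal protein genes 35 were higher and 0 lower, and 16 were higher and 1 lower after length adjustment. Without JTE + CTGF 3 the counts were 16 and 7 higher, and without JTE 1 the first was 22. Of 74 nuclear-encoded genes of oxidative phosphorylation 35 were higher and 1 lower, and 21 higher without JTE + CTGF 3. Their median was 0.16, and 0.03 after length adjustment, where 14 were higher (7 without JTE + CTGF 3). Of 10 respiratory subunits encoded in mitochondria 4 were higher and 3 lower, and 3 and 3 after length adjustment, with medians of 0.06 and −0.11. Among them mt-Nd5, a subunit of complex I, was lower in both fits (−0.47 and −0.62). Among the largest rises, Rps3a1 had 55.01, 57.2 and 42.8 normalised reads in JTE and 1182, 80.2 and 1488 in JTE + CTGF, so its level differed widely inside the group, and 71.01% of its 50-base words occur at other loci. Processed pseudogenes, many of them copies of such genes, were higher in 18.8% and lower in 11.2% of 885 tested.

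**Figure D5:**
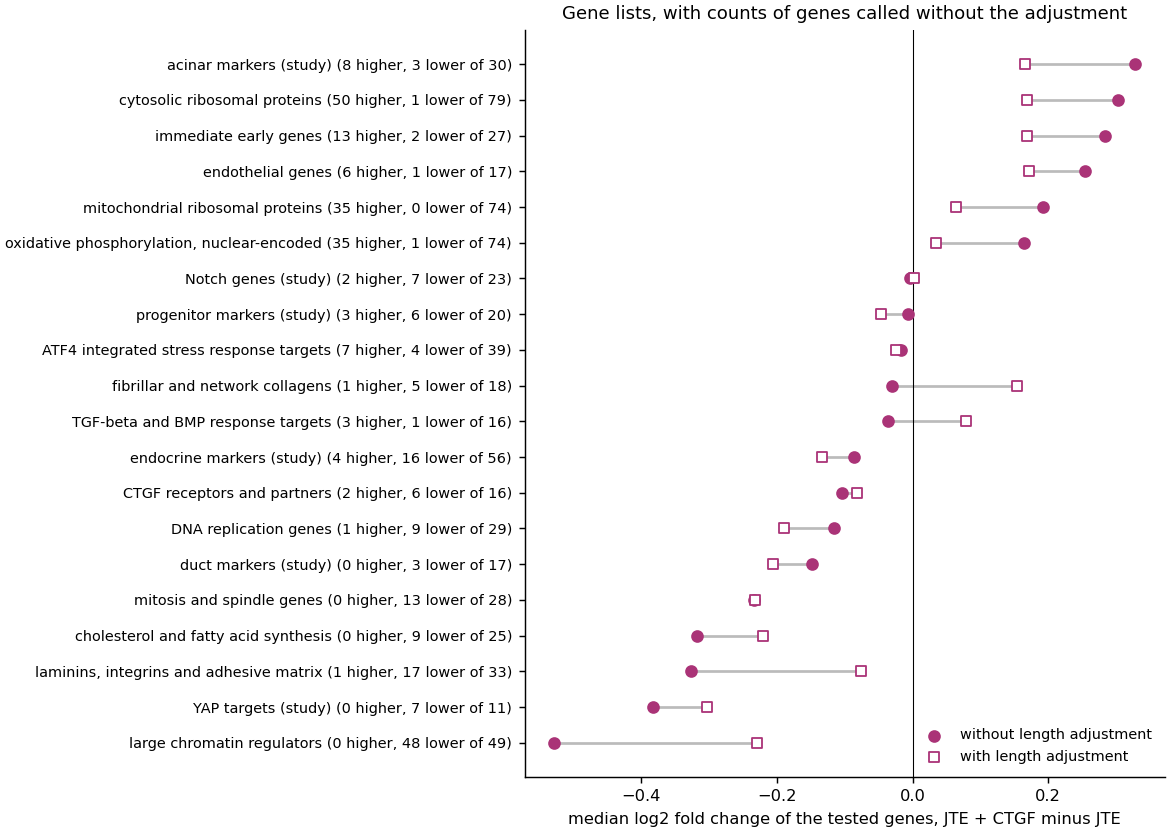
Median log2 fold change of JTE + CTGF against JTE for 20 gene lists, without (filled circles) and with (open squares) length adjustment, with the number of genes called without it. Large chromatin regulators move from −0.53 to −0.23 and cytosolic ribosomal protein genes from 0.30 to 0.17, while mitosis genes stay at −0.23.

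Immediate early genes are switched on by growth factor signals within minutes. Of 27 tested 13 were higher and 2 lower, with a median of 0.28, and 6 were higher without JTE + CTGF 3. After length adjustment 8 were higher and 1 lower, 4 higher without JTE + CTGF 2 or 3. Junb, a subunit of AP-1, had 448, 469 and 447 normalised reads in JTE and 695, 718 and 847 in JTE + CTGF (0.73 ± 0.12 SE, edgeR adjusted p = 1.62e-04; length-adjusted 0.58). Klf2 (0.70) and Egr2 (0.68) were higher in both fits. Of 39 targets of ATF4, the factor of the integrated stress response, 38 were higher in JTE than in control (25.9% of all genes were), and 7 were higher and 4 lower in JTE + CTGF than in JTE, with a median of −0.02. The 7 became 2 without JTE + CTGF 1, 11 without JTE + CTGF 2 and 4 without JTE + CTGF 3, and the 4 became 2 without JTE + CTGF 3. After length adjustment 5 ATF4 targets were higher (2 to 7 with 1 library left out) and 6 lower (3 to 7). Without the adjustment 28.2% of the list was called in either direction, near the 30.4% over all genes. Of 25 genes of cholesterol and fatty acid synthesis 0 were higher and 9 lower. The 9 became 20 without JTE 3, 4 without JTE 1 or JTE 2 and 5 without JTE + CTGF 1 or 3. After length adjustment 5 were lower, but 22 without JTE 3 and 0 without JTE 1, JTE 2, JTE + CTGF 1 or JTE + CTGF 3. The count therefore depended on single libraries. For JTE + CTGF against JTE, 13.6% of all genes were higher and 16.8% lower, and 9.47% and 12.3% after length adjustment.

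Survival, stress and metabolic lists held calls in both directions. Of 9 BCL2 family survival genes 2 were higher and 4 lower, among them Bcl2, an inhibitor of apoptosis. Bcl2 had 339, 307 and 327 normalised reads in JTE and 240, 227 and 217 in JTE + CTGF, without overlap (−0.51 ± 0.08 SE, edgeR adjusted p = 1.14e-04, length-adjusted −0.35). Of 23 death genes 4 were higher (1 to 5 with 1 library left out) and 2 lower. Of 22 p53 targets 3 were higher and 3 lower, with 0 to 4 and 2 to 5 when 1 library was left out, and of 19 Nrf2 targets 5 (2 to 6) and 3 (0 to 2). Of 27 genes of glycolysis and hypoxia 4 were higher (0 to 6) and 2 lower, which were the glycolytic enzymes Pkm (−0.53) and Hk2 (−0.55). Of 28 ER chaperone and degradation genes, which include Xbp1, 6 were higher and 3 lower, and of 20 tRNA synthetase genes 3 (1 to 4) and 3. After length adjustment the higher and lower counts were 2 and 2 for the BCL2 family, 1 and 2 for death genes, 1 and 3 for p53 targets, 2 and 3 for Nrf2 targets, 5 and 2 for glycolysis and hypoxia, 4 and 2 for ER genes, and 4 and 6 for tRNA synthetases. Over all genes 13.6% were higher and 16.8% lower without, and 9.47% and 12.3% with the adjustment.

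Besides the adipocyte genes given above, lists of markers of red cells and of other cell types were read. Over all genes 13.6% were higher and 16.8% lower, and 30.4% were called in either direction. In bulk RNA, fewer cells of a type and less RNA per cell cannot be told apart. Of 11 tested erythroid genes 3 were higher (2 to 4 with 1 library left out) and 0 lower, and the summed level of the list was 201 to 572 normalised reads in JTE and 852 to 1215 in JTE + CTGF. Hbb-bs, an adult beta globin gene, had 105, 65.4 and 117 in JTE and 443, 988 and 501 in JTE + CTGF (2.74 ± 0.28 SE, edgeR adjusted p = 3.03e-06, length-adjusted 2.57), and 53.2% of its 50-base words occur at other loci. Of 17 endothelial genes 6 were higher and 1 lower, 3 higher without JTE 2, JTE + CTGF 2 or JTE + CTGF 3, with summed levels of 7753 to 8635 and 8062 to 9353.

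Of 16 macrophage and leukocyte genes 0 were higher and 2 lower (1 to 3), at 2919 to 3667 and 2667 to 3713 summed. Cx3cr1, a chemokine receptor gene of tissue macrophages, had 42.3, 32.7 and 16.7 normalised reads in JTE and 9.15, 9.16 and 4.74 in JTE + CTGF (−1.95 ± 0.40 SE, edgeR adjusted p = 0.00147, length-adjusted −1.97). Of 17 mesenchyme genes 2 were higher (1 to 3) and 3 lower (1 to 3), and the small leucine-rich proteoglycan gene Lum was higher (0.50 ± 0.09 SE, edgeR adjusted p = 3.94e-04). Of 15 neural genes 0 were higher and 2 lower, and of 18 general epithelial genes 2 were higher and 2 lower (0 to 5). The share called in either direction was 12.5% for macrophage and leukocyte, 29.4% for mesenchyme, 13.3% for neural and 22.2% for epithelial genes. It was 30.4% over all genes, so these counts give no difference in these cell types. The part of these cell types in the other results was not tested.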

How the data were processed

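RNA of embryonic pancreata and cultured explants was sequenced as single-end, strand-specific poly(A) libraries. The values are raw read counts per gene, which the authors made by GSNAP alignment to mm10 and featureCounts 1.4.6 with Ensembl 69 genes and deposited as 1 table. The strand setting of the counting is not given in the sources used here, so overlapping genes may share reads. Symbols were matched for 24750 of 25292 identifiers (97.86%).

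Counts were tested with edgeR 4.0.16 (R 4.3.3, limma 3.58.1), using quasi-likelihood F-tests, TMM factors and filterByExpr, with all 15 libraries in 1 fit. The contrast was JTE + CTGF minus JTE, two-sided, with Benjamini-Hochberg adjustment over 16245 genes and calls below 0.05. Normalised read counts are counts scaled by the TMM library size. The length adjustment added to each library an offset from a spline (df 5) of log2 deviation on log10 summed exon length. A fold against libraries at or near 0 was computed against a floor of 3 reads per library, which covers counting error only. Total counts of 11402804 to 13589186 in the 6 libraries set the precision. Scripts were tested on simulated counts.

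Named genes were the 14 largest rises and 14 largest falls that passed in both fits with a mean above 100 normalised reads and groups apart, up to 4 called members of each gene list, hormone and fate genes, Ctgf, S1pr2 and the 3 longest and 3 shortest abundant genes. Some genes of this rule are not reported here. Ccn1, Ccn3 and Ccn4 were named as the other tested CCN genes after their values were seen. The members and lists were chosen with earlier results of these data known, and the Reg, acute-phase, MHC class I, adipocyte and satellite-like lists after the values of this comparison were seen. Alternatives were other scalings, filters, subsets of libraries, DESeq2 1.42.0, a replicate block, length and GC adjustment, and each of the 6 libraries left out. The replicate numbers were not taken to pair the samples, since no pairing was shown.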

Additional observations from a re-analysis of the deposited data

How the results depend on the processing

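The number of genes called, 4941, ran from 3362 to 4848 with 1 of the 6 libraries left out, and the number that met the criterion of the study, 283, from 241 to 343. With DESeq2 4455 were called, with the 6 libraries of the comparison alone 3584, with the 9 cultured libraries 4119, without a filter on low counts 5019, and at an adjusted p below 0.01 2963. Genes with at most 5% of words shared with other loci, an alternative chosen after seeing the data, gave 4212. The share of calls that were higher was 44.65% with TMM, 48.67% with RLE, 49.97% with upper-quartile factors and 36.05% without factors, and was 52.7% without JTE 3. The length trend of −0.451 ran from −0.510 to −0.378 with 1 library left out and was −0.3412 between the longest and the shortest 25% of genes, where the cause of the smaller value was not tested.

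Replicate numbers were not shown to pair the samples, since same-numbered libraries correlated at −0.14, −0.00619 and −0.161, and a fit with the replicate block called 4776 genes, and 3481 with length adjustment. Over 197 named genes and all settings, 2859 of 3145 values kept their side of the threshold, 274 lost the call and 12 gained it. Of these named genes, 0 that were called in the main or the alternative fit reversed direction. Most of the 197 were chosen because they were called in the main fit, so keeping call and direction was largely set by the choice. Among all genes tested, 26 were called in opposite directions without and with the length adjustment. Uncalled genes were free to change direction, as did Gcg (−0.31 to 0.08) and Neurog3 (−0.16 to 0.32).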
